A study of Drosophila melanogaster with 15 samples.

Results

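The genes described here were 151 Drosophila melanogaster genes that the deposited count tables list only by a code symbol, the letters CG followed by a number, and that had higher levels in tissue labelled as overexpressing dpp than in its control. A gene was kept when its lowest level in the 3 dpp overexpression libraries was at least 1 CPM (count per 1000000 gene counts of that library) and at least 1.5 times its highest level in the 3 control libraries. This kept 151 of 7768 CG symbols (1.94%), which is 3.4% of the 4447 CG symbols whose lowest dpp overexpression library reached 1 CPM. Without dpp overexpression library 3, which stood apart from the other two, the same rule would keep 231. The same values were met by 104 of the 7914 symbols of other form, or 1.31%, and by 255 of all 15682 symbols, or 1.63%. The members were thus selected on their CPM in the dpp overexpression and control libraries, so their levels in these groups are given as a description and were not tested.

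The 15 libraries came from 5 groups of 3, all in the strain background w1118 and all labelled skeletal muscle taken by dissection. The groups were dpp overexpression, its control, dpp RNAi construct 1, dpp RNAi construct 2 and control RNAi. Driver, age, sex and the number of animals per library are not given in the sources used here, nor whether libraries came from separate animals, so p-values measure only the spread between these libraries. A number block in the library codes is 43 for dpp overexpression and control, 47 for both constructs and 18 for control RNAi. A batch that follows this number and a construct's difference from control RNAi cannot be told apart. Nor can such a batch be told apart from a difference of dpp overexpression or control from the constructs or control RNAi.

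Gene counts per library summed to 11244899 to 56290808. dpp itself had 74.5, 80.9 and 52.8 CPM with dpp overexpression and 33.1 to 36.4 CPM in control, and 28.7 to 33.0 CPM with the constructs and 28.8 to 33.9 CPM in control RNAi. The dpp overexpression and control libraries did not overlap for dpp, and the RNAi labels name the groups without a measured loss of dpp. The labelled tissue was checked against markers. A list of 25 muscle genes summed to 5340 to 16440 CPM per library, and a list of 18 photoreceptor genes summed to 72550 to 95220 CPM, so transcripts of the eye were present at high levels beside those of muscle. Control RNAi had the lowest muscle sums, 5340 to 5522 CPM. In these bulk samples, fewer cells of a type and less RNA per cell cannot be told apart. Among the dpp overexpression libraries, library 3 stood apart from libraries 1 and 2: the chi-square per degree of freedom over genes was 60.9 and 51.9 for its pairs, against 19.5 for the pair of libraries 1 and 2 and 5.25 to 15.8 for pairs within the other groups.

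Dpp is a secreted ligand of the BMP family that sets growth and pattern in fly tissues through receptors and Smad proteins. Flies answer infection by secreting short peptides, mostly from the fat body and largely under the Toll and Imd pathways, and cascades of serine proteases relay microbial recognition to Toll and to melanization. STING is a sensor of cyclic dinucleotides that acts in antiviral defence through the NF-kB factor Relish. Many genes that still bear a code symbol have no described function.

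Of the 151 members, 42 have a name in the current RefSeq table, 108 still have their code and 1 (CG42262) matched ambiguously. One of the 42 is now listed as a noncoding RNA, lncRNA:CR32368 (CG32368). Current names are given first below, with the symbol of the files in brackets. CPM are not scaled by gene length, so a level is compared between libraries and not between genes. Mean levels with dpp overexpression spanned 1.11 to 2787 CPM with a median of 18 CPM. The ratio of the lowest dpp overexpression library to the highest control library had a median of 2.09. It was at least 2 for 81 members, at least 5 for 21, at least 10 for 11 and at least 20 for 9, and 70 members lay between 1.5 and 2. The rule itself places every dpp overexpression library of a member above every control library, so this separation is no result for any of them.

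**Figure D1:**
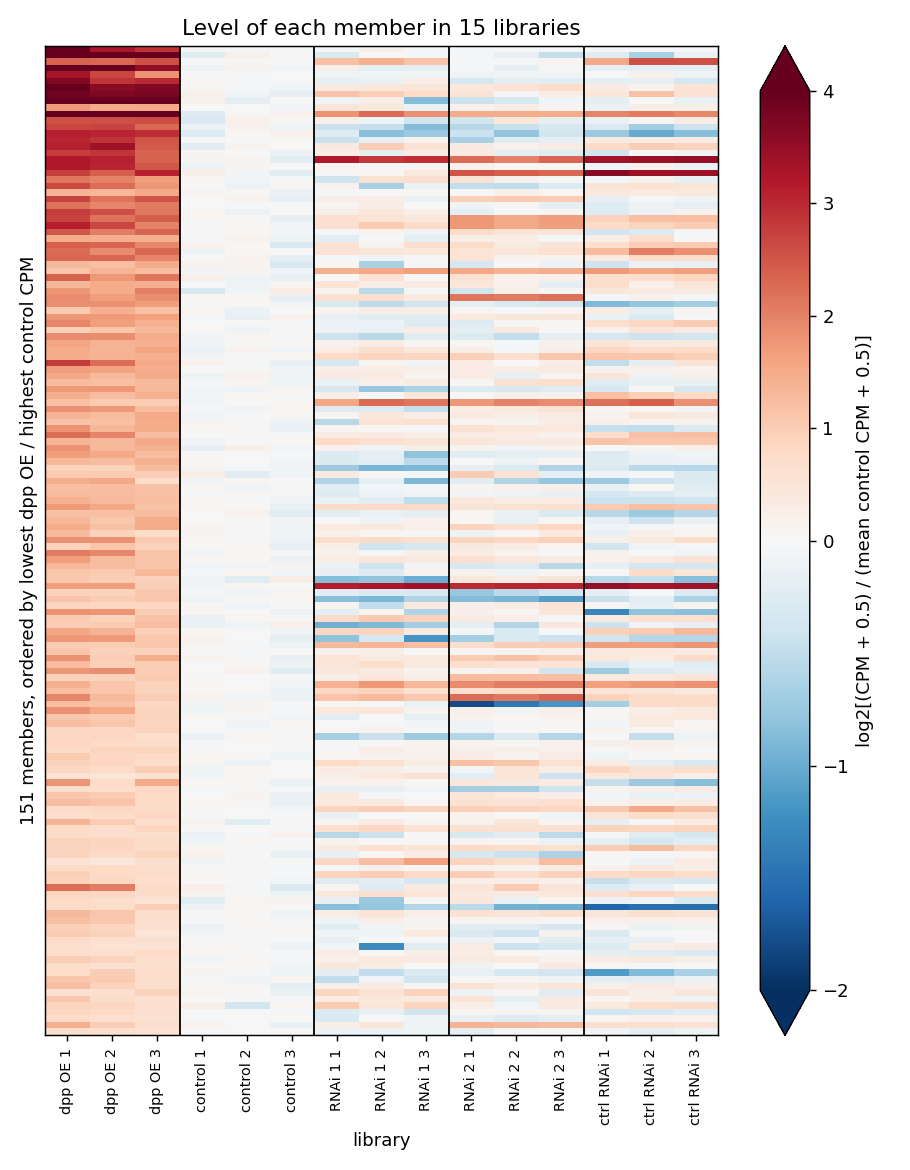
Heat map of all 151 members (rows, ordered by the ratio of the lowest dpp overexpression to the highest control library, largest at the top) in 15 libraries (columns, 3 per group), as log2 of CPM plus 0.5 over mean control CPM plus 0.5. Colours are limited to -2 and 4; the dpp overexpression columns are red throughout because the rule requires it, while single rows are red in the constructs and control RNAi as well.

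The members with the largest ratios were mostly serine protease relatives and genes without a name. SPH93 (CG6639), a serine protease homolog, had 107, 80.8 and 113 CPM with dpp overexpression, against 0.244, 0.513 and 0.380 CPM in control. Its lowest dpp overexpression library was 157 times its highest control library, and the constructs and control RNAi, at 0.0630 to 0.392 CPM, were as low as control. CG33462, which RefSeq also lists as SP240, had 10.4, 4.27 and 3.25 CPM with dpp overexpression, against 0.0188, 0 and 0 CPM in control. With 879 counts against 1, its pooled ratio was 955 (95% counting interval 171 to 37743). CG3117, also listed as SPH94, had 2.08, 1.99 and 2.43 CPM with dpp overexpression, against 0, 0.0190 and 0 CPM in control, and a pooled ratio of 302 (interval 53.7 to 11966) from 278 counts against 1. In the other groups CG3117 had 0.664, 0.863 and 0.623 CPM with construct 1 and 0, 0 and 0.0446 CPM with construct 2, against 0.939, 2.52 and 2.43 CPM in control RNAi, so its control RNAi replicates 2 and 3 were as high as its dpp overexpression libraries. CG18563, also listed as SPH156, had 14.1, 10.2 and 10.8 CPM with dpp overexpression, against 0.431, 0.361 and 0.326 CPM in control. These intervals cover counting error only, since PCR copies are not independent molecules.

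hoka (CG13704), a membrane protein of the septate junctions that seal epithelia, had 11.8, 10.7 and 11.2 CPM with dpp overexpression, against 0.488, 0.323 and 0.245 CPM in control. It was steady across the 3 dpp overexpression libraries. CG8560 was equally even, with 23.1, 24.3 and 24.9 CPM with dpp overexpression, against 1.07, 0.741 and 0.897 CPM in control. CG43175 had 11, 12.1 and 6.27 CPM with dpp overexpression, against 0.0375, 0.133 and 0.0543 CPM in control, and CG14423 had 4.64, 2.86 and 1.33 CPM with dpp overexpression, against 0.0375, 0.0190 and 0.0272 CPM in control; both were lowest in dpp overexpression library 3. CG10814, for which RefSeq lists the synonym gamma-BBH, the enzyme of the last step of carnitine synthesis, had 7.78, 4.09 and 4.58 CPM with dpp overexpression, against 0.150, 0.114 and 0.136 CPM in control. CG9673, also listed as SPH81, lay just above the level limit with 1.26, 1.03 and 1.06 CPM with dpp overexpression, against 0.0563, 0.0570 and 0.0272 CPM in control. CG31296 had 4.67, 4.72 and 4.86 CPM with dpp overexpression, against 0.206, 0.513 and 0.408 CPM in control.

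All 5 genes of the STING group in the files were members: Sting itself, its effector Nazo, and Srg1, Srg2 and Srg3, named as STING-regulated genes. Srg3 (CG33926) had 303, 322 and 324 CPM with dpp overexpression, against 12.5, 15.3 and 17 CPM in control and a ratio of lowest dpp overexpression to highest control library of 17.9. Sting (CG1667), the sensor, had 89.4, 87.3 and 67.5 CPM with dpp overexpression, against 23, 24.6 and 24 CPM in control. Nazo (CG11671) had 5.33, 5.46 and 3.96 CPM with dpp overexpression, against 0.338, 0.532 and 0.353 CPM in control. Srg1 (CG13641) had 13.4, 17 and 8.61 CPM with dpp overexpression, against 0.938, 1.35 and 1.20 CPM in control, and Srg2 (CG42825) had 2.06, 2.24 and 1.02 CPM with dpp overexpression, against 0.394, 0.456 and 0.435 CPM in control. Exons of Sting overlap Orc6 and those of Srg1 overlap CG7016, both on the opposite strand, and whether counting used strand is not given in the sources used here. In the other groups Srg3 had 52.9, 73.6 and 53.9 CPM with construct 1 and 42.9, 42.8 and 43 CPM with construct 2, against 59.4, 64.9 and 58.1 CPM in control RNAi. All of these lay above its control libraries and below its dpp overexpression libraries.

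The Bomanins are short secreted peptides that Toll signalling induces and that flies need to resist Gram-positive bacteria and fungi. Of 8 Bomanin genes listed by code, 4 were members, and the 4 Bomanins with other symbols (IM1, IM2, IM3 and IM23) met the same values. Among all symbols that reached 1 CPM in each dpp overexpression library, 3.4% of CG symbols and 2.12% of other symbols met them. BomBc2 (CG15067) had 1051, 869 and 898 CPM with dpp overexpression, against 455, 468 and 417 CPM in control. BomBc3 (CG5791) had 266, 194 and 214 CPM with dpp overexpression, against 81.5, 79.2 and 69.8 CPM in control, and BomS5 (CG15065) had 374, 188 and 312 CPM with dpp overexpression, against 115, 113 and 99.3 CPM in control. BomT1 (CG43202), with far fewer counts, had 14.9, 8.10 and 11.6 CPM with dpp overexpression, against 4.31, 3.88 and 3.45 CPM in control. Library 2 had the lowest value of the dpp overexpression libraries for all 4. The 4 coded Bomanins that were no members, BomS4, BomS6, BomT2 and BomT3, had 140.0 to 187 CPM, 333 to 616 CPM, 144 to 199.9 CPM and 259 to 388 CPM with dpp overexpression, against 139 to 156 CPM, 337 to 386 CPM, 84.2 to 106 CPM and 264 to 279 CPM in control. Groups overlapped in BomS4, BomS6 and BomT3 and did not overlap in BomT2. Bomanins are similar short genes and exons of BomBc2 overlap BomS4 on the opposite strand, so reads may not have been assigned to the right one.

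Bbd (CG18067), which Bomanins need for their activity, took the most counts of all members, with 2975, 2403 and 2982 CPM with dpp overexpression, against 1149, 1057 and 1007 CPM in control. BaraA1 (CG33470), a precursor from which several Toll-induced antifungal peptides are cut, had 537, 406 and 365 CPM with dpp overexpression, against 175, 178 and 157 CPM in control. BaraB (CG13749), its relative, had 1.31, 1.29 and 1.21 CPM with dpp overexpression, against 0.544, 0.247 and 0.326 CPM in control, and the third Baramicin, BaraC, was no member and lower, with 43.9 to 47.7 CPM, against 54.4 to 58.1 CPM in control. Mtkl (CG43236), named for its likeness to the antifungal peptide Metchnikowin, had 20.4, 14 and 17.6 CPM with dpp overexpression, against 2.70, 3.02 and 2.36 CPM in control. GNBP-like3 (CG13422), named as a relative of the GNBP recognition proteins, of which some act upstream of Toll, had 249, 181 and 224 CPM with dpp overexpression, against 43.4, 45.9 and 42.1 CPM in control. On a list of humoral immune genes with ordinary names, which share no gene with the members, 31 of 50 tested genes were higher and 1 was lower with dpp overexpression (background 13.4% higher and 16.2% lower of 10668 genes). Its median log2 fold change was 1.17, beside -0.01 over all genes.

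**Figure D2:**
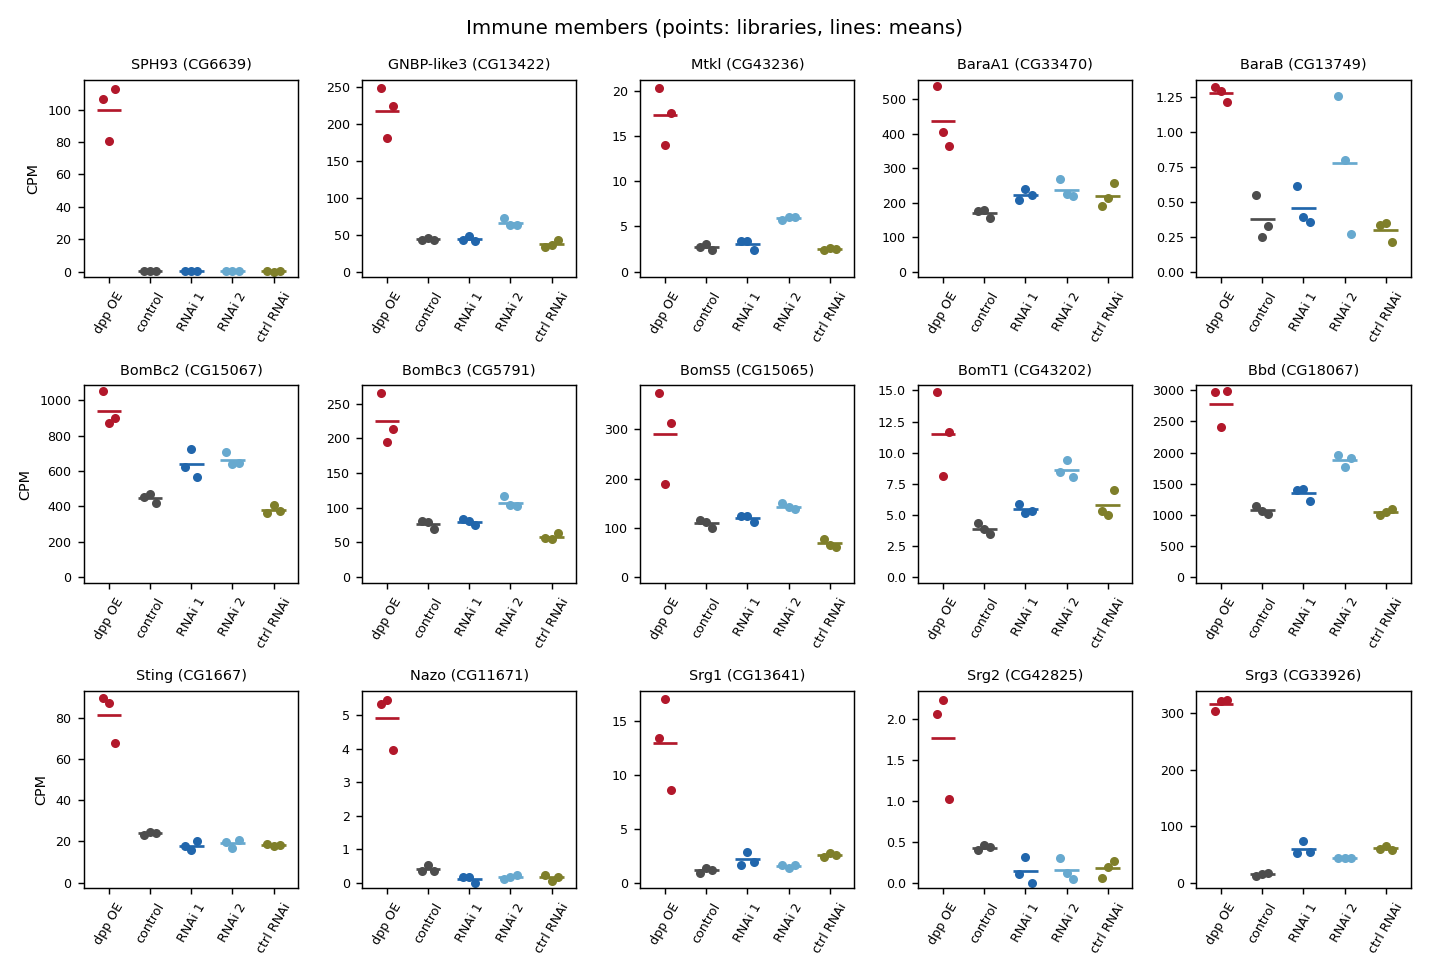
CPM of 15 immune members in each library, by group (points, libraries; lines, group means; every axis starts at 0; RNAi 1 and RNAi 2 are constructs 1 and 2). SPH93 and the STING group had their highest mean with dpp overexpression, and Srg3 lay higher with the constructs and in control RNAi than in control, while the means of Bbd and the Bomanins with construct 2 lie between those of dpp overexpression and of control.

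Of the 200 CG symbols with a serine protease code as a RefSeq synonym (SP or SPH and a number), 12 were members, and 69 reached 1 CPM in each dpp overexpression library. Of all CG symbols at that level, 3.4% were members. Of the 70 genes with such a code under a symbol of other form, 0 met the same values. Many of these, among them all Jon genes, lay below 1 CPM with dpp overexpression and could not be kept by the rule. The count of 0 therefore says little about the code as a whole. Besides those above, Hayan (CG6361), a protease of the melanization and Toll cascades, had 46.8, 43.2 and 37.6 CPM with dpp overexpression, against 22.2, 24.4 and 22.5 CPM in control. flz (CG8213), a membrane-bound protease gene known from tracheal development, had 3.91, 3.39 and 4.15 CPM with dpp overexpression, against 1.41, 1.75 and 1.68 CPM in control. CG11842 had 48.5, 44.8 and 40.6 CPM with dpp overexpression, against 25.5, 25.6 and 24.2 CPM in control, and CG43110 had 8.07, 7.48 and 5.09 CPM with dpp overexpression, against 1.86, 1.79 and 2.04 CPM in control. The 3 other members with such a code, CG14642, CG18179 and CG42694, had 1.24 to 9.95 CPM with dpp overexpression, against 0.285 to 2.70 CPM in control. Without dpp overexpression library 3, 17 genes with such a code met the rule.

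Neprilysins are typically zinc peptidases of the cell surface that break down signalling peptides. Genes named Nepl are neprilysin-like, and whether their proteins share these traits was not examined here. Of 23 coded neprilysin genes, 21 reached 1 CPM in each dpp overexpression library and 4 were members, beside 3.4% of all CG symbols at that level. Of the 5 with symbols of other form, 0 met the same values. Nepl17 (CG14529) had 5.95, 4.37 and 3.05 CPM with dpp overexpression, against 0.525, 0.456 and 0.625 CPM in control, and Nep7 (CG5527) had 46.2, 37.8 and 22.9 CPM with dpp overexpression, against 9.66, 9.33 and 9.35 CPM in control. Nepl4 (CG9505) had 26, 25.3 and 16.2 CPM with dpp overexpression, against 8.48, 7.43 and 6.44 CPM in control, and Nepl11 (CG9780) had 239, 220.2 and 167 CPM with dpp overexpression, against 103, 107 and 103 CPM in control. In each of these 4, dpp overexpression library 3 was the lowest of its group. Without library 3, 11 neprilysin genes met the rule in place of 4, so the count for this family depends on that library.

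Among 48 coded genes that carry the numbering of the ecdysteroid kinase-like family, thought to phosphorylate steroids and toxins in insects, 4 were members. Of these 48, 34 reached 1 CPM in each dpp overexpression library, and of all CG symbols at that level 3.4% were members. Of the 3 genes of this numbering with symbols of other form, 0 met the same values. CG31288 had 15.5, 14.9 and 11 CPM with dpp overexpression, against 2.98, 2.76 and 1.98 CPM in control, and its neighbour CG13659 had 10.4, 9.75 and 9.79 CPM with dpp overexpression, against 3.23, 3.31 and 3.61 CPM in control. CG16898 and CG13360 are described with the groups below, since they were as high or higher with construct 2.

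The next members were grouped after their values were seen. The first of them encode enzymes of amino acid and one-carbon metabolism, and CG14630 and the transporter SLC22A are added beside these. Sardh (CG6385), which oxidizes sarcosine to glycine in mitochondria, had 84.2, 85.9 and 65.9 CPM with dpp overexpression, against 17.1, 18.6 and 14.8 CPM in control. Gnmt (CG6188), glycine N-methyltransferase, which makes sarcosine from glycine, had 114, 90.8 and 84.5 CPM with dpp overexpression, against 53.9, 55.7 and 52.8 CPM in control. Tdh (CG5955), named for threonine dehydrogenase, had 52.6, 51.9 and 62.3 CPM with dpp overexpression, against 29.2, 33.1 and 31.3 CPM in control. CG14630, a neighbour of member CG42259 that shares the synonym gamma-BBH with CG10814, had 64.8, 66 and 63 CPM with dpp overexpression, against 28.5, 26.3 and 28.4 CPM in control, and SLC22A (CG7442), named as a transporter of the SLC22 family, had 30.2, 29 and 22.9 CPM with dpp overexpression, against 13.3, 12.9 and 15 CPM in control.

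Further named members have varied roles. CNT2 (CG8083) is named as a concentrative nucleoside transporter, Tmc (CG3280) encodes a channel-like protein of mechanosensory neurons, and peg (CG17278) encodes a secreted protein that binds Wingless. Sid (CG9989), named as a stress-induced nuclease, had 35.1, 23.4 and 13.9 CPM with dpp overexpression, against 5.18, 4.47 and 4.05 CPM in control. Ugt37A3 (CG5999), a UDP-glycosyltransferase, had 4.28, 3.87 and 4.66 CPM with dpp overexpression, against 1.07, 1.43 and 1.14 CPM in control. CtsL3 (CG11459), named as a cathepsin L, a lysosomal protease, had 14.6, 9.33 and 12.4 CPM with dpp overexpression, against 2.89, 2.28 and 2.15 CPM in control. lncRNA:CR32368 (CG32368), the noncoding member, had 72.8, 69.3 and 65.4 CPM with dpp overexpression, against 6.47, 8.40 and 8.97 CPM in control.

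The members that took the most counts after Bbd and BomBc2 were mostly without a name, apart from BaraA1 and Srg3. CG4757 had 1006, 693 and 830.0 CPM with dpp overexpression, against 165, 157 and 137 CPM in control. CG15784 had 785, 708 and 485 CPM with dpp overexpression, against 79.1, 91.4 and 85.9 CPM in control, and it was low in all other groups. CG9485 had 676, 664 and 589 CPM with dpp overexpression, against 184, 195 and 179.5 CPM in control; its exons overlap CG33655 on the opposite strand. CG1213 had 474, 453 and 401 CPM with dpp overexpression, against 260.4, 265 and 253 CPM in control, CG32444 had 369, 374 and 406 CPM with dpp overexpression, against 199.8, 193 and 193 CPM in control, and CG12116 had 327, 298 and 252 CPM with dpp overexpression, against 136, 131 and 145 CPM in control. Library 3 was not always the lowest in these: it was the highest dpp overexpression library of CG32444.

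Members without a name that lay well above the threshold are added here after their values were seen. CG8907 had 23.7, 21.3 and 16.4 CPM with dpp overexpression, against 2.36, 2.41 and 2.50 CPM in control. CG13282 had 11.5, 12.1 and 8.50 CPM with dpp overexpression, against 1.11 to 1.37 CPM in control, with exons that overlap AspRS-m on the opposite strand, and CG43064 had 31.2, 26.8 and 19 CPM with dpp overexpression, against 4.37, 3.71 and 4.08 CPM in control. CG12766 had 11.7, 9.83 and 10.8 CPM with dpp overexpression, against 2.21, 2.13 and 2.23 CPM in control. These 4 were at 0.818 to 5.65 CPM in every library of the constructs and control RNAi, close to control. CG11034 had 38.1, 27.5 and 16.9 CPM with dpp overexpression, against 3.88, 4.16 and 3.78 CPM in control, a wide spread in which library 1 was the highest and library 3 the lowest, and 6.41, 8.71 and 7.11 CPM with construct 1, 14.4, 12.3 and 13.7 CPM with construct 2 and 7.18, 7.81 and 8.47 CPM in control RNAi.

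The 151 members can be divided by how far they lay above control. These sets are cut on the values of the rule. The fall in folds over the sets follows in part from that cut, and so may the counts above other libraries. They are given as a description. For the 21 members with a ratio of at least 5, the dpp overexpression mean was 6.92 to 954 times the control mean (median 21.2), 6 have a current name and 18 were above all 12 other libraries by at least 1.5 times. For the 60 members with a ratio from 2 to 5, the fold of means was 2.33 to 8.33 (median 3.46), with 19 named and 40 above all other libraries. For the 70 members with a ratio under 2, it was 1.56 to 4.88 (median 1.98), with 17 named and 14 above all other libraries. The median dpp overexpression level was 11.3, 12 and 40.9 CPM in these 3 sets.

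The threshold cut through a continuum. The members just inside it were CG1213, CG32687, CG13360 and CG3368, with ratios of 1.513, 1.511, 1.508 and 1.508. Just outside it were CG5118 (now Charon), CG9837, CG33189 and CG31427, with ratios of 1.494, 1.486, 1.483 and 1.483. Of the 151 members, the lowest dpp overexpression library was library 3 for 84, library 2 for 49 and library 1 for 18. Among all tested genes these shares were 47.9%, 23.5% and 28.6%. Without library 3 the rule kept 231 CG symbols, all 151 members and 80 more. Marker sums of library 3 differed from those of libraries 1 and 2. The gut list summed to 186 CPM in library 3, against 385 and 271 CPM in libraries 1 and 2, and the haemocyte list to 3241 CPM, against 4315 and 3804 CPM. The neuron list summed to 8488 CPM in library 3, against 6910 and 6659 CPM in libraries 1 and 2, the photoreceptor list to 90100 CPM, against 77850 and 78600 CPM, and the cuticle list to 1099 CPM, against 806 and 786 CPM. In control, gut sums were 190.3 to 224 CPM, haemocyte sums 3217 to 3493 CPM and neuron sums 7558 to 7931 CPM, and photoreceptor sums 85550 to 93550 CPM and cuticle sums 1051 to 1143 CPM. For the photoreceptor and cuticle lists library 3 lay within the control range, and libraries 1 and 2 lay below it. The part of these markers in the members' values was not tested.

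Across all 5 groups, the mean was highest with dpp overexpression for 132 members, in control RNAi for 9, with construct 2 for 6 and with construct 1 for 4. For 72 members the lowest dpp overexpression library was at least 1.5 times the highest of all 12 other libraries. For 23 members, the mean of at least 1 of the constructs or control RNAi reached the lowest dpp overexpression library, and the other 56 lay between. By the rule, control could not have the highest mean for any member. That choice favours dpp overexpression in these counts, and the shares over all genes are not given here. The summed level of all members was 12670 to 14690 CPM with dpp overexpression and 4898 to 5245 CPM in control, and 5763 to 6457 CPM with construct 1, 7221 to 7763 CPM with construct 2 and 5517 to 5935 CPM in control RNAi. Relative to control alone, the 3 control RNAi libraries lay above all 3 control libraries for 65 members and below them for 32, beside 19.3% and 48.4% of all tested genes. Control entered the rule as the low group, so no test is read from this. Libraries of dpp overexpression and control bear another library code number than those of the constructs and control RNAi. A batch cannot be told apart from differences between these groups.

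In 6 members the means of both constructs and of control RNAi all reached the lowest dpp overexpression library: CNT2, CG3513, CG6912, CG16898, CG1774 and CG9119. CG6912 had 18.7, 18.9 and 11.6 CPM with dpp overexpression, against 5.27, 5.82 and 5.65 CPM in control, but it had 53.1, 56.3 and 61.3 CPM with construct 1 and 47.2, 49.9 and 50.3 CPM with construct 2, against 69.2, 60.6 and 61.3 CPM in control RNAi. Its dpp overexpression level thus stood above control and below the other 3 groups. CG3513 showed the same order, with 2.36, 2.12 and 2.11 CPM with dpp overexpression, against 0.713, 0.798 and 0.842 CPM in control, and with 3.26, 5.73 and 5.16 CPM with construct 1 and 3.77, 4.53 and 4.24 CPM with construct 2, against 5.36, 6.17 and 4.03 CPM in control RNAi. CG16898 had 63.2, 50.8 and 44 CPM with dpp overexpression, against 24, 23 and 22.2 CPM in control, and it had 61.4, 78.7 and 57.4 CPM with construct 1 and 86.2, 96.2 and 96.3 CPM with construct 2, against 72.4, 78.4 and 82.8 CPM in control RNAi. In these members control was the lowest of the 5 groups. CG7900 had 22.8, 20.8 and 12.5 CPM with dpp overexpression, against 2.23, 2.22 and 1.68 CPM in control, and it had 22.9, 17.4 and 19.3 CPM with construct 1 and 11.5, 9.52 and 12.3 CPM with construct 2, against 25.4, 27.3 and 28 CPM in control RNAi. CG30054, for which RefSeq lists the G protein subunit name Galphaq as a synonym, had 17.7, 13.7 and 22.9 CPM with dpp overexpression, against 2.68, 2.11 and 1.85 CPM in control, and it had 2.27, 2.35 and 3.02 CPM with construct 1 and 15, 13.8 and 12.9 CPM with construct 2, against 33, 28.6 and 29 CPM in control RNAi. CG30054 was thus highest in control RNAi and as low with construct 1 as in control.

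**Figure D3:**
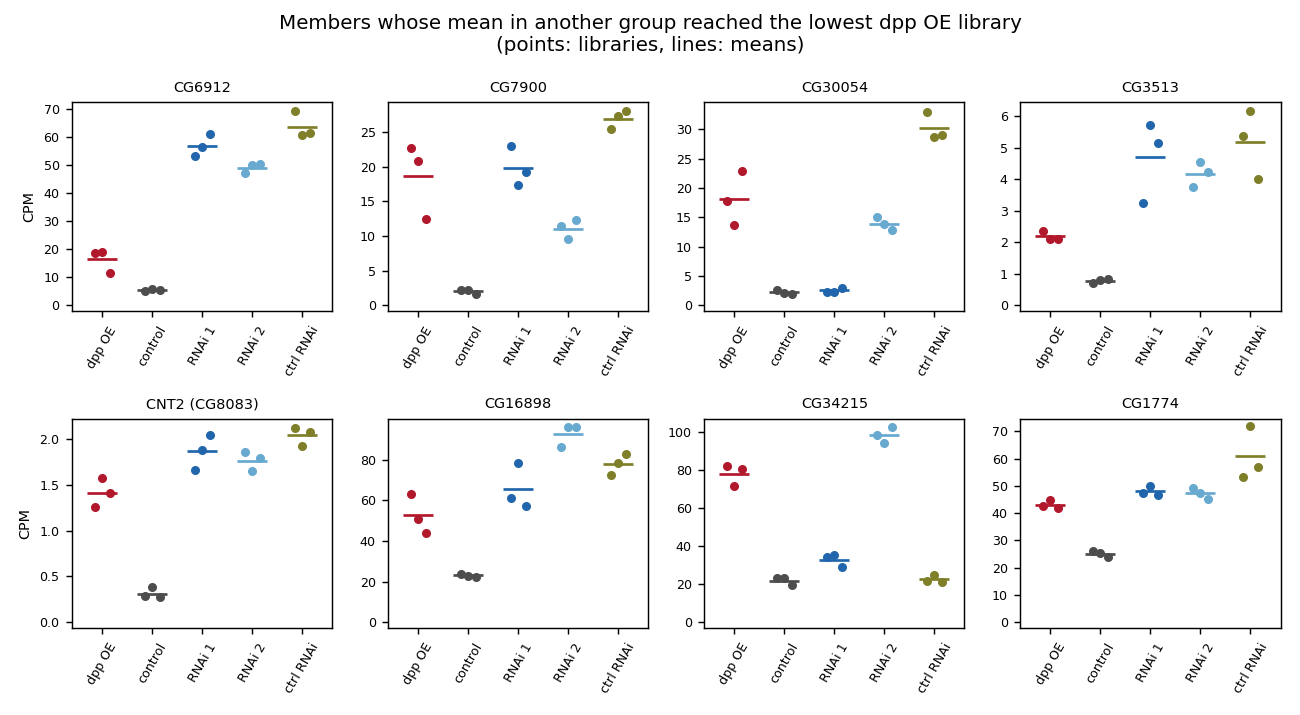
CPM of 8 members whose mean in a construct or in control RNAi reached the lowest dpp overexpression library (points, libraries; lines, group means; axes start at 0), chosen after their values were seen. For CG6912, CG3513, CG16898 and CG1774 control had the lowest mean of the 5 groups and dpp overexpression the next lowest, and CG34215 was high with dpp overexpression and construct 2.

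Libraries of the constructs and of control RNAi played no part in the choice of members, so these comparisons were tested, with edgeR's quasi-likelihood test over 10668 genes and Benjamini-Hochberg adjustment. All 151 members were among the genes tested, but 8 passed the filter on low counts through dpp overexpression: in fewer than 3 of the 9 construct and control RNAi libraries did they reach the filter level. With construct 1 against control RNAi, 16 members were higher and 28 lower, beside 13.1% and 12.6% of all tested genes. That is 10.6% and 18.5% of the members. Without construct 1 replicate 1, 29 members were called in place of 44 (19.2% in place of 29.1%), beside 19.3% in place of 25.7% of all tested genes. With construct 2, 37 were higher and 33 lower (24.5% and 21.9% of members), beside 21.0% and 20.3% of all tested genes. The construct 2 shares were near the background, and the lower share with construct 1 was above it with all libraries in the fit. With both constructs alike, 15 members were higher and 21 lower, beside 10.2% and 8.77% of all genes; both comparisons share the control RNAi libraries. Median log2 fold changes of the members were -0.05 with construct 1 and 0.01 with construct 2, beside 0.00 and 0.01 over all genes. The median of their absolute values was 0.30 and 0.40, beside 0.15 and 0.20. These medians include the 8 members that passed the filter through dpp overexpression and were not matched for level, and fold changes at low counts spread widely. In 72 members (47.7%) neither construct nor the comparison between constructs passed the threshold, against 51.2% of all tested genes. The 72 hold all 8 members that passed the filter through dpp overexpression, and 64 of the other 143 (44.8%). Of 25 tested muscle genes, 22 were higher with each construct, with medians of 1.18 and 1.24. Of 18 photoreceptor genes, 7 were lower with construct 1 and 14 with construct 2, and none was higher. Of 12 neuron genes, 2 were lower with construct 1, and with construct 2 there were 8 lower and 1 higher. Glia markers had 2 of 8 higher and 5 lower with construct 1, and 2 higher and 1 lower with construct 2. Cuticle markers had 8 of 15 higher and 1 lower with construct 1, and 6 higher and 2 lower with construct 2. The part of tissue make-up in the members' changes was not tested.

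Among members higher with both constructs were the immune genes BomBc2, BomBc3, BomS5 and Bbd. BomBc2 had 625, 722 and 568 CPM with construct 1 and 707, 641 and 646 CPM with construct 2, against 362, 407 and 377 CPM in control RNAi. Its log2 fold changes were 0.72 ± 0.09 with construct 1 (SE derived from the F statistic, adjusted p = 7.87e-05 by edgeR) and 0.79 ± 0.09 with construct 2 (adjusted p = 1.34e-05). BomS5 had 124, 124 and 112 CPM with construct 1 and 150.0, 141 and 138 CPM with construct 2, against 78.2, 66 and 60.5 CPM in control RNAi, or 0.79 ± 0.20 (adjusted p = 0.0117) and 1.06 ± 0.20 (adjusted p = 0.0012). For both genes the constructs did not overlap with control RNAi. BomBc3 rose by 0.44 (adjusted p = 0.00754) and 0.88 (adjusted p = 2.64e-05), and Bbd by 0.34 (adjusted p = 0.0108) and 0.84 (adjusted p = 7.78e-06). BomT1 rose with construct 2 (0.57 ± 0.20, adjusted p = 0.0314) and was -0.09 with construct 1 (adjusted p = 0.792). Mtkl and GNBP-like3 rose with construct 2, by 1.23 and 0.81 (adjusted p = 3.12e-05 and 0.000136), and were 0.28 and 0.21 with construct 1 (adjusted p = 0.293 and 0.216). BaraA1 was not called with either construct, at -0.01 (adjusted p = 0.984) and 0.10 (adjusted p = 0.578). BaraB was at 0.65 with construct 1 (adjusted p = 0.422) and called higher with construct 2 (1.29 ± 0.46, adjusted p = 0.0355), a call lost without construct 2 replicate 1 or 2 or any 1 control RNAi library (0.76 to 1.42). The humoral list had 9 higher and 2 lower of 50 with construct 1, beside 13.1% and 12.6% of all tested genes, and 25 higher and 2 lower with construct 2, beside 21.0% and 20.3%. Fat body markers had 3 of 19 higher and 4 lower with construct 1, and 6 higher and 1 lower with construct 2. They summed to 12470 to 14140 CPM with construct 1 and 15560 to 17190 CPM with construct 2, against 13890 to 15490 CPM in control RNAi. Haemocyte markers had 1 of 12 higher and 2 lower with construct 1, and 3 higher and 1 lower with construct 2. They summed to 3125 to 3823 CPM with construct 1 and 3593 to 4209 CPM with construct 2, against 3760 to 3866 CPM in control RNAi. The part of these markers in the immune members' changes was not tested. In the STING group, adjusted p-values with construct 1 were 0.757 for Sting, 0.471 for Srg1 and 0.843 for Srg3, and with construct 2 Srg3 (-0.51 ± 0.12, adjusted p = 0.00404) and Srg1 (-0.75 ± 0.28, adjusted p = 0.0444) were lower. Nazo and Srg2 reached the filter level in 0 of the 9 construct and control RNAi libraries, so their tests there say nothing. The construct 2 call of BomT1 was lost without any 1 construct 2 library or control RNAi replicate 1 or 2 (0.48 to 0.62), and that of Srg1 without any 1 library of the comparison (-0.81 to -0.68). Neither was called without the filter on low counts (0.55 and -0.77).

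Other members higher with both constructs included CG34244 at 1.60 ± 0.28 (adjusted p = 0.000651) and 1.30 ± 0.27 (adjusted p = 0.00145). It had 1.49, 2.12 and 2.93 CPM with construct 1 and 1.56, 1.30 and 2.14 CPM with construct 2, against 0.606, 0.535 and 0.901 CPM in control RNAi, without overlap, and at 1.03 to 1.21 CPM its dpp overexpression level was below that of both constructs. Tdh (CG5955) rose by 0.79 and 0.73, with 17.1, 18 and 20.6 CPM with construct 1 and 21.3, 16 and 15.7 CPM with construct 2, against 10.1, 10.8 and 10.7 CPM in control RNAi. peg (CG17278) rose by 0.54 (adjusted p = 0.00517) and 0.59 (adjusted p = 0.00135). The construct 1 calls of CG42807 (0.80), CG13026 (0.79) and CG4839 (0.50) depended on single libraries. The call of CG42807 was lost without construct 1 replicate 1 or 2 or any 1 control RNAi library (0.63 to 0.90), and also without the filter on low counts (0.77), and that of CG13026 without construct 1 replicate 1 or 2 or control RNAi replicate 2 or 3 (0.61 to 0.79). The call of CG4839 was lost without any 1 construct 1 library or control RNAi replicate 2 (0.44 to 0.52). With construct 2 they were 1.29, 1.24 and 0.60, and those calls did not change when a library was left out.

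Among the members lower with both constructs, CG30054 was at -3.61 ± 0.22 (adjusted p = 1.54e-07) and -1.13 ± 0.16 (adjusted p = 0.000115). CG1979 had 11.6, 10.7 and 10.2 CPM with construct 1 and 11.4, 10.7 and 12 CPM with construct 2, against 18.7, 32.9 and 27.9 CPM in control RNAi, or -1.31 ± 0.19 (adjusted p = 0.000362) and -1.23 ± 0.18 (adjusted p = 0.000198). CG10073 was at -1.16 and -0.99, CG13694 at -0.91 and -0.97, and CG15093 at -0.70 and -0.61, each called with both. CG18327 was called at -0.53 and -0.48. CG3117 had 30 counts with construct 1, 1 with construct 2 and 192 in control RNAi. Its construct 2 ratio was 0.009 (95% counting interval 0.000227 to 0.0507), and its construct 1 call (-1.48) was lost without construct 1 replicate 1 (-1.41).

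Neprilysin members were among those lower. Nep7 had 12.3, 12 and 11.4 CPM with construct 1 and 11.9, 12.1 and 10.7 CPM with construct 2, against 15.8, 21.8 and 22.4 CPM in control RNAi, or -0.77 ± 0.22 (adjusted p = 0.0247) and -0.81 ± 0.22 (adjusted p = 0.0106), and Nepl17 was at -1.17 (adjusted p = 0.046) and -1.82 (adjusted p = 0.0027). The construct 1 call of Nep7 was lost without any 1 construct 1 library or control RNAi replicate 2 or 3 (-0.80 to -0.68). That of Nepl17 was lost without construct 1 replicate 2 or 3 or any 1 control RNAi library (-1.20 to -0.81), and that of CG8907 (-0.62 and -0.80) without construct 1 replicate 1 or 2 or any 1 control RNAi library (-0.63 to -0.42). Nepl4 and Nepl11 were not called with either construct.

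**Figure D4:**
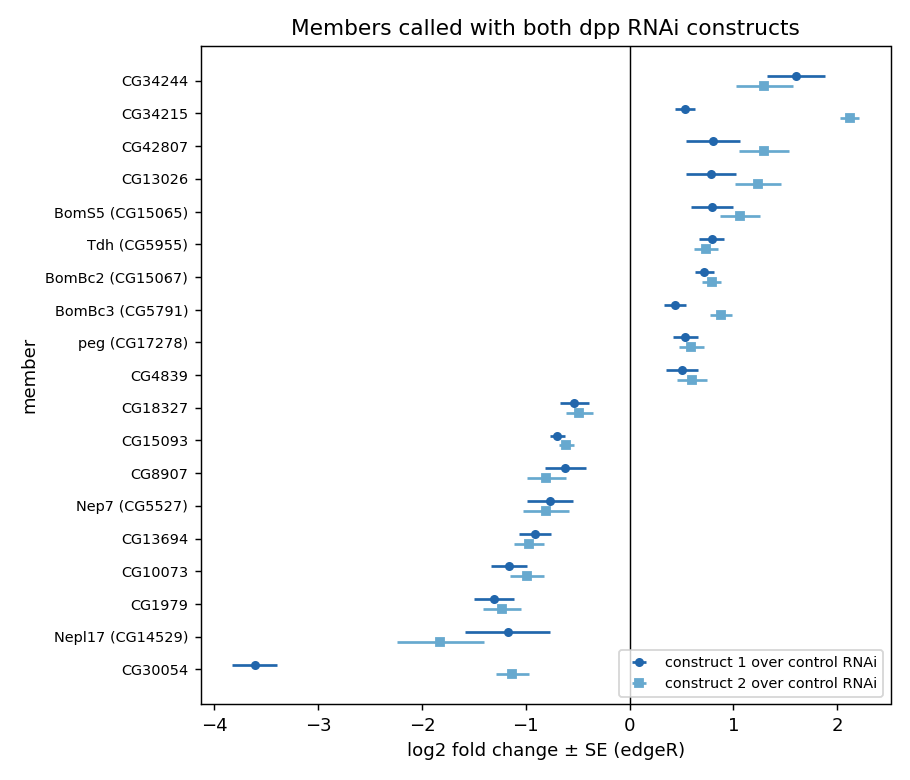
Log2 fold change with SE of 19 members called with both constructs against control RNAi (edgeR, SE derived from the F statistic), up to 10 per direction. Circles are construct 1 and squares are construct 2. CG3117 is left out because it had 1 count with construct 2. BomS5, BomBc2, BomBc3 and Tdh lie right of 0 and Nep7, Nepl17 and CG30054 left of it, with both constructs on the same side for each member.

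The constructs themselves differed in 32 members, 11 higher and 21 lower with construct 1 than with construct 2, beside 5.67% and 6.36% of all tested genes (7.28% and 13.9% of the members). CG34215 had the smallest adjusted p, with 34.5, 35.4 and 28.9 CPM with construct 1, against 98.4, 94 and 102 CPM with construct 2 (-1.59 ± 0.09, adjusted p = 3.42e-08, edgeR). Its level with construct 2 was above that with dpp overexpression, 82.1, 71.4 and 80.5 CPM. CG32444 had 233, 273 and 233 CPM with construct 1, against 463, 456 and 452 CPM with construct 2 (-0.91 ± 0.07, adjusted p = 5.32e-07). The constructs did not overlap in either gene. CG4757 had 243, 223 and 211 CPM with construct 1, against 508, 435 and 489 CPM with construct 2, and 288, 354 and 355 CPM in control RNAi, which lay between. CG13360, of the ecdysteroid kinase-like genes, had 14.8, 17.1 and 11.5 CPM with construct 1, against 32.6, 31.5 and 30.3 CPM with construct 2. antr (CG30488) had 2 counts with construct 1, against 48 with construct 2, a ratio of 0.0562 (95% counting interval 0.00662 to 0.214). CG34232 was the 1 gene higher with construct 1 among the 10 with the smallest adjusted p, with 4.20, 3.37 and 4.45 CPM with construct 1, against 1.91, 2.27 and 1.74 CPM with construct 2 (1.01 ± 0.17, adjusted p = 0.00133). Some immune members were lower with construct 1 than with construct 2: Bbd at -0.49 (adjusted p = 0.00249), Mtkl at -0.95 (adjusted p = 0.00285) and GNBP-like3 at -0.59 (adjusted p = 0.00698). BomBc3 was at -0.44 (adjusted p = 0.0151), a call lost without construct 1 replicate 3 (-0.40) or construct 2 replicate 1 (-0.38). Not called between the constructs were BomBc2 at -0.07 (adjusted p = 0.671), BomS5 at -0.27 (adjusted p = 0.42), BomT1 at -0.67 (adjusted p = 0.0615), BaraA1 at -0.11 (adjusted p = 0.669) and BaraB at -0.65 (adjusted p = 0.455). Srg3 was called the other way, at 0.47 (adjusted p = 0.025), a call lost without construct 1 replicate 2 or any 1 construct 2 library (0.30 to 0.48). Without construct 2 replicate 1, 21 members were called between the constructs (13.9% in place of 21.2%), beside 5.71% in place of 12% of all tested genes. Of the marker lists, photoreceptor genes had 5 of 18 and cuticle genes 3 of 15 higher with construct 1 than with construct 2, with none lower. Lower with construct 1 were 4 of 8 glia, 4 of 19 fat body and 2 of 12 haemocyte genes, with none higher. The part of these lists in the members' differences was not tested.

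**Figure D5:**
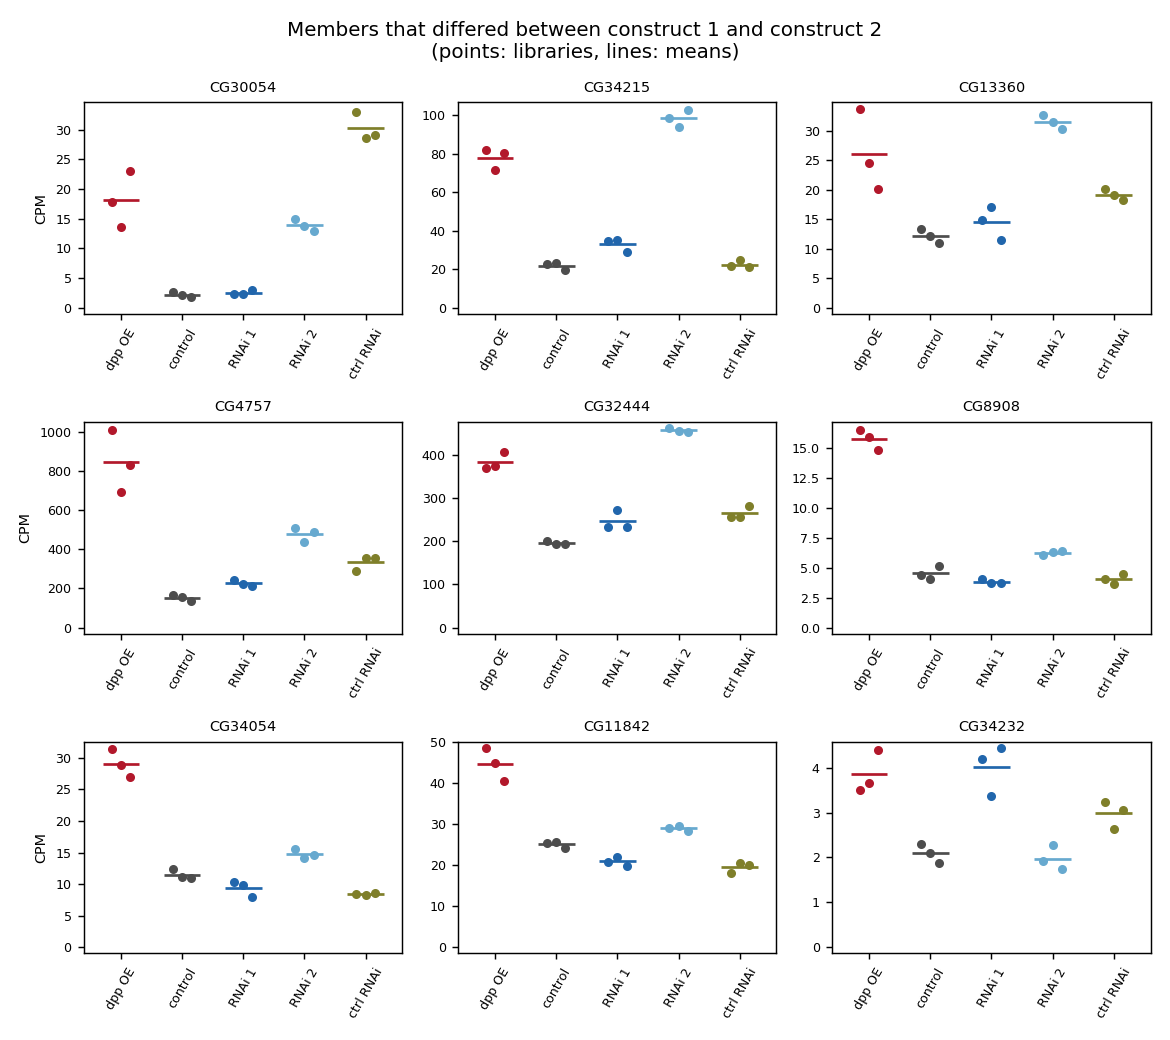
CPM by library of the 9 members with the smallest adjusted p between construct 1 and construct 2, antr left out for its 2 counts with construct 1 (points, libraries; lines, group means; axes start at 0; RNAi 1 and RNAi 2 are the constructs). In all but CG34232 the construct 2 libraries lie above those of construct 1, and CG34215 and CG32444 are higher with construct 2 than with dpp overexpression.

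Position in the genome was not used by the rule. Of 150 members with a chromosome, 27.3% were on arm 2R, 26.7% on 3R, 17.3% on 2L, 15.3% on 3L and 13.3% on X, beside 19.6%, 25.6%, 17.8%, 19.5% and 17.0% of the tested CG symbols. By gene order, 24 of 149 placed members formed 12 pairs of direct neighbours (16.1%), and no run was longer than 2. Of the 175 CG symbols lowered by the same rule turned round, 24 had such a neighbour (13.7%). Both sets were chosen on dpp overexpression and control levels. The share in CG symbols chosen without these levels was not computed, so it is not known whether 16.1% is high. Pairs included SPH93 and CG18563, both serine protease homologs, CG31288 and CG13659 of the ecdysteroid kinase-like family, and Bbd with CG30154. CG30154 had 13.3, 9.33 and 9.99 CPM with dpp overexpression, against 3.02, 3.99 and 3.26 CPM in control. CG16713 and its neighbour CG43165 had 75.2, 47.5 and 38.4 CPM and 2.11, 2.06 and 1.76 CPM with dpp overexpression, against 21.4, 18.4 and 17.6 CPM and 1.16, 0.589 and 0.978 CPM in control. Exons of 46 of 150 members overlap another gene in the Ensembl annotation, 12 on the same strand and 34 only on the opposite one, and for these reads of both genes may not be separable. The 12 include CG14630 (with Rpp21), CG6912 (with asRNA:CR45600) and CG18327 (with CG8323).

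Counts over marker lists of cell types that the dissection could hold are given beside these results. With dpp overexpression 13.4% of all tested genes were higher and 16.2% lower. With dpp overexpression, haemocyte markers had 4 of 12 higher and 1 lower, gut markers 2 of 9 tested higher, fat body markers 5 of 19 higher and 6 lower, and muscle markers 4 of 25 higher and 2 lower. Glia markers had 0 of 8 higher and 3 lower, cuticle markers 1 of 15 higher and 4 lower, photoreceptor markers 2 of 18 higher and 3 lower, and neuron markers 1 of 12 higher and 1 lower. Medians of the haemocyte, gut, fat body and muscle lists were 0.30, 0.29, -0.17 and 0.05, beside -0.01 over all genes. Summed levels were 3241 to 4315 CPM with dpp overexpression and 3217 to 3493 CPM in control for haemocytes. For the fat body they were 8788 to 9570 CPM with dpp overexpression and 9351 to 10510 CPM in control. Glia sums were 2140 to 2171 CPM with dpp overexpression and 2340 to 2402 CPM in control, which did not overlap. With the replicate number as a block in a fit of the dpp overexpression and control libraries (15.2% of all tested genes higher and 14.6% lower), muscle markers had 7 higher and 4 lower, and gut markers 1 of 7 tested higher. Without dpp overexpression library 3 (14.8% higher and 17.1% lower), haemocyte markers had 7 higher and 1 lower, photoreceptor markers 2 higher and 8 lower, muscle markers 1 higher, and neuron markers 4 lower. Without library 2 (11.5% higher and 13.9% lower), haemocyte markers had 2 higher and 1 lower and muscle markers 1 higher and 2 lower, and without library 1 (10.6% higher and 12.7% lower) no gut marker was called. Of 20 BMP signalling components tested, 6 were higher and 5 lower. The part of these lists in the members' levels was not tested.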

How the data were processed

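Stranded total RNA from 15 libraries was sequenced, per the labels' protocols. The deposited files hold raw read counts per gene symbol, as whole numbers, with 5 HTSeq summary lines each (14.48 to 20.93% of entries) that were left out. Per the submitters' processing notes, BWA, STAR and HTSeq were used with genome build dm3; versions, annotation and strand setting are not given in the sources used here. Members were picked on CPM without further scaling. Groups were taken from the sample titles.

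Counts were tested in R 4.3.3 with edgeR 4.0.16 (filterByExpr with minimum count 10, 10668 genes, TMM, robust quasi-likelihood fit of all 15 libraries, 10 residual degrees of freedom, Benjamini-Hochberg adjusted p under 0.05 over all genes), checked on simulated counts. DESeq2 1.42.0, other scaling, no filter, a replicate block and leaving out each library were alternatives, those for marker lists added after seeing the data. edgeR's quasi-likelihood test reports no SE. The SEs given are the absolute log2 fold change over the square root of its F statistic. Gene counts per library of 11244899 to 56290808 leave a floor of 0.0533 to 0.267 CPM at 3 counts. Deviations of same-numbered dpp overexpression and control libraries correlated at 0.13, 0.19 and 0.32, so these numbers may pair samples. The main fit has no block, and marker lists were therefore also counted with a replicate block. With 3 libraries against 3 an exact permutation test cannot go below p = 0.1, so none was run.

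Members and lists were chosen with earlier results of these data known. Named genes were the 12 largest ratios, the 10 highest dpp overexpression means, up to 10 members per direction called with both constructs (by the smaller absolute log2 fold change), the 10 smallest adjusted p between constructs, members next to the threshold, neighbouring members and coded immune genes. Genes named for a family, a role, an overlap or a group pattern were added after their values were seen. Likeness to Drs was not computed, since libraries fall into separate groups, and promoter and protein sequences were not analysed here. Families were read from symbols and synonyms of the RefSeq Release 6 table. Its coordinates and those of Ensembl were used only for arm, order and overlap and are not printed, because the counts are from another build. Python 3.11.15, pandas 2.3.3 and matplotlib 3.10.9 read the files and drew the plots.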

Additional observations from a re-analysis of the deposited data

Results flagged for a closer look

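The 10 members below differed between construct 1 and construct 2 by the test of that difference itself (edgeR's quasi-likelihood test, Benjamini-Hochberg adjusted over 10668 genes). The values are log2 fold changes of construct 1 over construct 2, and the 10 were those with the smallest adjusted p. CG34215 was at -1.59, CG32444 at -0.91, CG30054 at -2.48, CG4757 at -1.09 and CG34054 at -0.66. CG11842 was at -0.48, CG13360 at -1.13 and CG8908 at -0.71, and antr (CG30488) was at -4.06 from 2 counts with construct 1 and 48 with construct 2. CG34232 was at 1.01.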

How the results depend on the processing

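The number of members was 81 with a fold limit of 2, 250 with a laxer limit, 150 on TMM-scaled CPM, 107 with a minimum of 5 CPM, and 157 to 231 when 1 library was left out. The 231 came without dpp overexpression library 3. Members called with construct 1 numbered 29 to 42 when 1 library was left out (29 without construct 1 replicate 1), against 44 with all. With construct 2 they numbered 62 to 66, between the constructs 21 to 26 (21 without construct 2 replicate 1), and in both construct comparisons alike 26 to 39. Leaving out a library removes both reads and degrees of freedom. With DESeq2 the counts were 48, 71, 35 and 40 for construct 1, construct 2, the constructs against each other and both comparisons alike. A replicate block gave 45, 72, 33 and 35. Under that block the construct 1 call of CG42807 was lost (0.79). Deviations of same-numbered libraries correlated at -0.09 to 0.07 between the constructs and control RNAi, so there the numbers were not taken to pair samples. Between the constructs they correlated at 0.35, 0.13 and -0.06, which leaves pairing unclear. The main fit has no block there either, and the counts with a block are those given above. A replicate block fitted to dpp overexpression and control, chosen after seeing the data, left 31 higher and 1 lower on the humoral list. No named result reversed: under other settings 1005 values kept their side of the threshold, 7 lost their call and 14 gained one, and with 1 library left out 1181 kept it, 70 lost their call and 9 gained one. Depth limits the members with few counts: 8 members did not reach the filter level in 3 of the 9 construct and control RNAi libraries.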
